A study of Homo sapiens with 2 samples.

Results

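The nuclear genes for the subunits of the 5 oxidative phosphorylation complexes were examined in REH, a cell line of human precursor-B acute leukaemia that the labels call REH-R. The 86 genes were taken by gene symbol from 25702 gene features and make up complex I (37 genes), complex II (4), complex III (10), complex IV (17) and complex V (18). Pseudogenes and assembly factors were left out. One group carried a doxycycline-regulated cassette of PAX5, an internal ribosome entry site and green fluorescent protein (GFP). The control group carried the same kind of cassette with GFP and no PAX5. Both groups had 3 days of doxycycline at 1 µg/mL and were sorted for GFP-positive cells, and both keep the resident PAX5 gene of the line. There was 1 RNA library per group, so differences could not be checked against replicates and carry no p-value.

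Oxidative phosphorylation makes ATP in the inner mitochondrial membrane. Complex I oxidises NADH and complex II oxidises succinate. Both pass electrons to coenzyme Q, complex III passes them on to cytochrome c, and complex IV passes them to oxygen. Complexes I, III and IV pump protons, and complex V (ATP synthase) makes ATP as the protons flow back. Complexes I, III, IV and V are built from subunits of both genomes, and only complex II is wholly nuclear. The mitochondrially encoded subunits are not analysed here.

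Summed read counts came to 11944765 (PAX5 library) and 10997864 (control library). PAX5 itself had 8319 counts in the PAX5 library, against 2660 in the control library, which is 2.90-fold higher (95% counting interval 2.78 to 3.03). All 12 B-precursor markers listed had counts, and their sum was 9383 CPM (counts per 1000000) in the PAX5 library, against 8598 CPM in the control library. This sum includes PAX5 itself, at 699 and 241 CPM in the PAX5 and control libraries, and MME, at 1455 and 858 CPM. The counting interval lay above the control level for 5 of the 12 markers, below it for 3 (IGLL1, DNTT and RAG1) and held it for 4. A gene count cannot separate reads of the introduced PAX5 from those of the resident gene. The NK and erythroid markers were at 0 in both libraries, and the only T-cell marker count was 1 for CD3E in the control library. Of 6 myeloid markers, 4 had a count, with sums of 20.0 and 29.3 CPM in the PAX5 and control libraries, mostly from ITGAM, while S100A8 and FCGR3A were at 0. Of 3 stromal markers, COL1A1 had 115 and 93 counts in the PAX5 and control libraries and COL3A1 was at 0. Whether these small sums bear on the subunit genes was not tested. In bulk RNA, fewer cells of a type and less RNA per cell cannot be told apart.

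Most subunit genes had slightly lower scaled counts in the PAX5 library. Together they held 0.962% of its counts, against 1.12% of the control counts. After scaling by TMM, the sum over the 86 genes was 0.863-fold that of the control library, a log2 ratio of -0.21 (95% interval -0.22 to -0.20). All ratios below are the PAX5 library over the control library, and their intervals cover counting error only. Of the 86 genes, 81 had at least 10 counts over both libraries. Among these 81, 76 ratios were negative and 5 were positive, with a median log2 ratio of -0.24 beside -0.01 over all 13532 features with that many counts. The interval lay wholly below 0 for 67 genes and wholly above 0 for 2, SDHA and COX8C. Over all 13532 features 17.1% had an interval below 0 and 18.4% had one above 0. No subunit gene had an interval wholly beyond 2-fold, which 1.33% of all features had on the higher side and 0.0517% on the lower side. Among 5269 other features with at least 1000 counts those shares were 0.399% and 0.0%, and 24.7% had an interval below 0 and 28.5% one above 0. The spread between cultures was not measured. If a biological coefficient of variation of 0.1 is assumed on top of counting error, the intervals of 5 genes stay below 0 (NDUFS5, ATP5MK, ATP5ME, UQCR11 and COX8A) and that of COX8C stays above 0.

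The order of the genes by level was nearly the same in both libraries. Levels are given here as CPM per kilobase of the gene feature's length in the deposited table (called Length below). Over the 79 genes with at least 100 counts, levels ranged from 14.2 to 578 CPM per kilobase in the PAX5 library, with a median of 90.7, and from 15.8 to 653 in the control library, with a median of 106. SDHC, a membrane anchor of complex II, was the lowest in both libraries, and ATP5F1B, the catalytic beta subunit of ATP synthase, was the highest. Complex IV genes had the highest median level per length (169 and 202 CPM per kilobase in the PAX5 and control libraries), followed by complex V (114 and 139). Complex I (76.1 and 92.7), complex III (72.5 and 85.8) and complex II (63.0 and 73.0) had lower medians. The ranges of the complexes overlapped, except that in the control library all complex II genes (15.8 to 106) lay below all abundant complex IV genes (126 to 615). Across genes the log2 levels of the PAX5 and control libraries had a Spearman rho of 0.986 (n = 79 genes, which are not independent replicates).

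**Figure D1:**
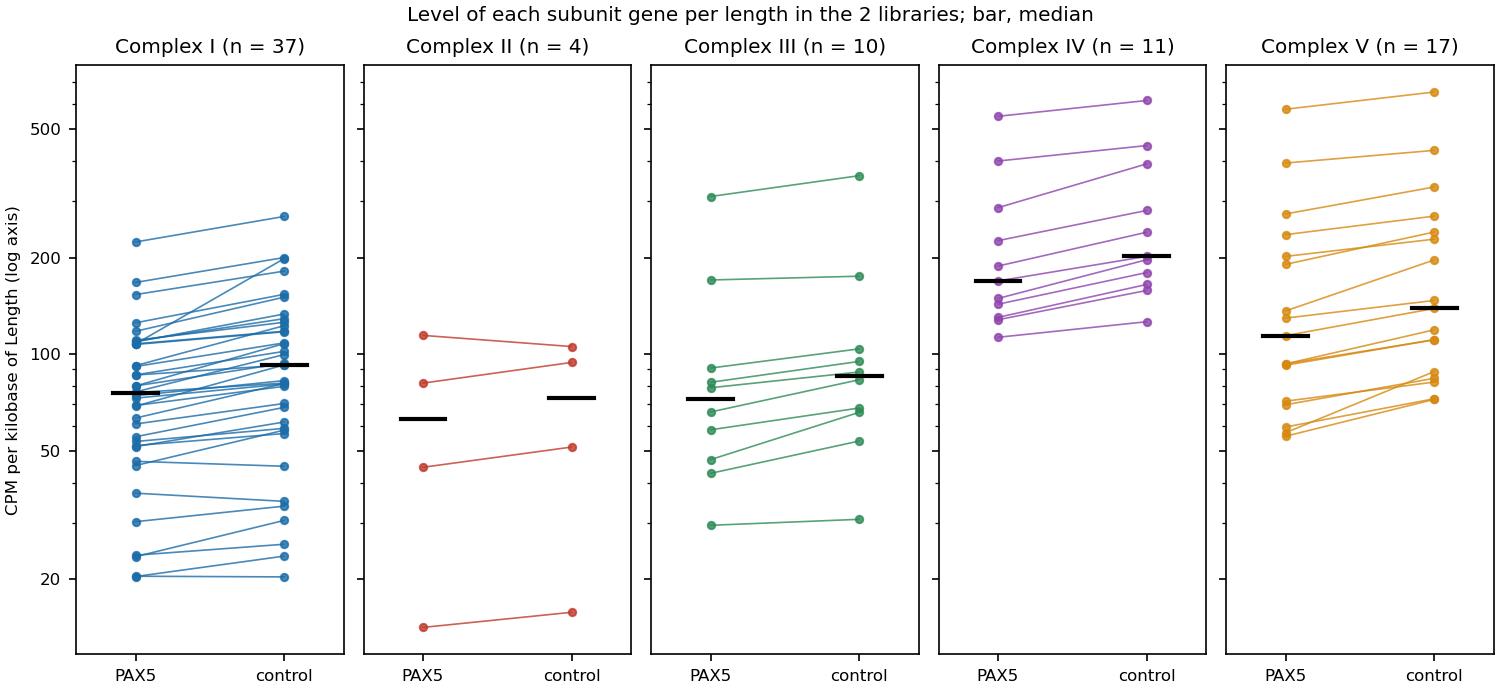
Level of each subunit gene with at least 100 counts, in CPM per kilobase of Length on a log axis, in the PAX5 library (left point) and the control library (right point) of each complex; each line is 1 gene and each black bar a median. Nearly all lines run upward to the control library by a small amount, and the line of SDHA in complex II runs the other way, with 115 CPM per kilobase in PAX5 cells and 106 in control cells. The lines of NDUFS1, NDUFA5 and NDUFV3 in complex I also run the other way, by less.

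Among the genes with at least 100 counts, promoters are shown for the 3 lowest ratios that have a window in the RefSeq table used, ATP5MK, ATP5ME and UQCR11, and for SDHA, the abundant gene with an interval above 0. Nuclear respiratory factor 1 (NRF1), the ETS-family factor GABP and YY1 are known to bind promoters of respiratory-chain genes. The windows run from 250 bases before to 50 bases after the start of the gene (RefSeq, build GRCh38.p14), 5′ to 3′ on the gene's strand. Capitals mark matches to either of these factors' cores on either strand. The NRF1 core searched was GCGC, then A and any base (any base and T on the other strand), then GCGC. The ETS core searched was CCGGAAG, which on the other strand reads as the letters CTTCCGG.
The ATP5MK window lies at chr10:103396426-103396725 on the minus strand, the ATP5ME window at chr4:674227-674526 on the minus strand, the UQCR11 window at chr19:1605413-1605712 on the minus strand and the SDHA window at chr5:218070-218369 on the plus strand.
ATP5MK: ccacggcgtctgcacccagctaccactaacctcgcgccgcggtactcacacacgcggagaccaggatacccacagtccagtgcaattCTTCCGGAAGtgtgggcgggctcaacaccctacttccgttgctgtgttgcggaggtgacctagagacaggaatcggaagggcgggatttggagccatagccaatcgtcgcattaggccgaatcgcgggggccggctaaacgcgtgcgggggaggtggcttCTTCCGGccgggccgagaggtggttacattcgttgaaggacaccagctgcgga
ATP5ME: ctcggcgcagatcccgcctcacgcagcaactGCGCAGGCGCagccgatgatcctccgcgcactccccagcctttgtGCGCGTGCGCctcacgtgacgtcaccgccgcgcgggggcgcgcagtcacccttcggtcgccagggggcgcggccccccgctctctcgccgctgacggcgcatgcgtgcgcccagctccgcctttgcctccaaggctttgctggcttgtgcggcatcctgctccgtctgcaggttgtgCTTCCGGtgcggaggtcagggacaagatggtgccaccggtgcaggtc
UQCR11: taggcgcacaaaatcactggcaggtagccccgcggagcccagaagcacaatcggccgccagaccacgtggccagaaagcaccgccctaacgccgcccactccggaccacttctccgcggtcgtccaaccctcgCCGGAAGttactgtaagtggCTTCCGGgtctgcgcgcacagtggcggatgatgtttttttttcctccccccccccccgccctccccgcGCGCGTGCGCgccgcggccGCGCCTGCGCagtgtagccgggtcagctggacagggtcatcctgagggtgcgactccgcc
SDHA: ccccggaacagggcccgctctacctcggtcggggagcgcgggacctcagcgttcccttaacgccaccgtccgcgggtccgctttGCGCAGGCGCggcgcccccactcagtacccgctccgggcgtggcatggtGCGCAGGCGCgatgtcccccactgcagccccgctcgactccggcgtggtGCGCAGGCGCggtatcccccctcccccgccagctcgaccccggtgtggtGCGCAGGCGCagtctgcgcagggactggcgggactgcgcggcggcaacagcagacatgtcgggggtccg
The ATP5MK window held 3 ETS cores, at -163, -160 and -3 from the start, of which the first 2 overlap on opposite strands. ATP5ME held NRF1 cores at -219 and -174 and an ETS core at 4, after the start. In UQCR11, ETS cores lay at -117 and -97 and NRF1 cores at -29 and -10. SDHA held 4 copies of the NRF1 core spaced 49 bases apart, at -166, -117, -68 and -19, and no ETS core.

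Of the 86 genes, 69 had a promoter window in that table. The NRF1 core was in the windows of 17 of the 69 (24.6%), against 17.0% of 4430 other genes with at least 1000 counts and 6.98% of all 27305 genes with a window. The ETS core was found in 30.4% of the subunit genes, against 24.6% of the other abundant genes and 12.2% of all genes. The YY1 core AAGATGGCG (CGCCATCTT on the other strand) was found in 13.0%, against 6.25% and 2.14%. At least 1 of the 3 cores was present in 58.0% of subunit genes, against 41.2% of other abundant genes and 19.0% of all genes. Having a core went with little difference in ratio. The median log2 ratio was -0.25 for 16 genes with an NRF1 core and -0.24 for 49 without one, and it was -0.26 for 21 genes with an ETS core and -0.23 for 44 without one. For the YY1 core the medians were -0.21 (9 genes) and -0.25 (56 genes). Set against genes of like Length, as described below, the medians with and without an NRF1 core were -0.083 and -0.036. With and without an ETS core they were -0.062 and -0.046, and with and without a YY1 core -0.036 and -0.056. Matches of letters are a description and do not show that a factor binds.

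Complex I, the NADH dehydrogenase, had 28 of 37 genes with an interval below 0 and none above 0. The median log2 ratio was -0.23. Among features of like Length, as described below, 65.0% on average had an interval below 0. The summed counts of complex I were 32590 in the PAX5 library versus 35328 in the control library, a log2 ratio of -0.23 (-0.25 to -0.20). The 7 nuclear core subunits, which carry the flavin and the iron-sulphur clusters or lie beside them, had a median of -0.14, and 5 had an interval below 0. The 30 accessory subunits, which surround and stabilise the core, had a median of -0.24, and 23 had an interval below 0. Accessory genes are shorter (median Length 737 bases, against 959 for core genes). Set against genes of like Length in the same way, the medians were -0.0241 for accessory and -0.0008 for core subunits. On average 66.5% (accessory) and 58.6% (core) of their features of like Length had an interval below 0.

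NDUFS5, a small accessory subunit on the intermembrane side of complex I, had the lowest ratio of all 79 genes with at least 100 counts. It had 733 counts in the PAX5 library, against 1251 in the control library, or 108 and 199 CPM per kilobase. Its log2 ratio was -0.88 (-1.01 to -0.75), a level 0.543-fold that of the control library. Only 5 of 5269 other features with at least 1000 counts had a lower ratio. None of these 5 was among the 230 such features of up to 1000 bases, the size class of NDUFS5 (571 bases). No other gene of the table overlapped it.

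The next lowest complex I genes were small accessory subunits, NDUFB1 and NDUFA3 in the membrane arm and NDUFA7 in the peripheral arm. NDUFB1 had 399 counts in PAX5 cells and 501 in control cells, a log2 ratio of -0.44 (-0.63 to -0.24). NDUFA7 had 440 counts in the PAX5 library versus 548 in the control library, a log2 ratio of -0.43 (-0.61 to -0.24). NDUFA3 had 389 counts in the PAX5 library, against 480 in the control library, at -0.41 (-0.61 to -0.22). NDUFA3 overlaps TFPT, which had 214 and 269 counts in the PAX5 and control libraries, and reads of overlapping genes cannot be told apart here. Of the 86 genes, 20 overlap another gene of the table, and for 12 of them that gene had at least 100 counts.

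At the other end of complex I, 3 genes had positive ratios whose intervals held 0. NDUFS1, the large core subunit with iron-sulphur clusters, had 1508 counts in PAX5 cells and 1319 in control cells, a log2 ratio of 0.08 (-0.02 to 0.19). NDUFA5, an accessory subunit of the peripheral arm, had 859 counts in the PAX5 library versus 769 in the control library, at 0.05 (-0.09 to 0.19). NDUFV3, a small subunit of the NADH-oxidising tip, had 519 counts in the PAX5 library, against 479 in the control library, at 0.01 (-0.17 to 0.19). Core subunits were found at both ends of the complex. NDUFS8, which holds iron-sulphur clusters next to the quinone site, had 732 counts in PAX5 cells and 887 in control cells, at -0.39 (-0.53 to -0.24). NDUFV1, the NADH- and flavin-binding subunit, had 2124 counts in the PAX5 library versus 2404 in the control library, at -0.29 (-0.37 to -0.20).

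Complex II, succinate dehydrogenase, was split. SDHA, the flavoprotein that oxidises succinate, had 3260 counts in the PAX5 library, against 2791 in the control library, a log2 ratio of 0.12 (0.04 to 0.19). Of 5269 other features with at least 1000 counts, 1490 had a higher ratio than SDHA. With an assumed biological coefficient of variation of 0.1 the interval of SDHA did not stay above 0. The other 3 ratios of the complex were negative. SDHB, the iron-sulphur subunit, had 1118 counts in PAX5 cells and 1202 in control cells, at -0.21 (-0.33 to -0.09). The membrane anchor SDHD had 725 counts in the PAX5 library versus 777 in the control library, at -0.21 (-0.36 to -0.06). The other anchor, SDHC, had 483 counts in the PAX5 library, against 499 in the control library, at -0.16 (-0.34 to 0.03). The 4 ratios had a median of -0.18, but the summed counts differed by only -0.02 (-0.08 to 0.03) on the log2 scale, and SDHA supplied 3260 of 5586 counts in the PAX5 library and 2791 of 5269 in the control library. SDHA has transcribed pseudogenes that may share reads with it. SDHAP1, SDHAP2, SDHAP3 and SDHAP4 had log2 ratios of 0.29, 0.20, 0.29 and 0.20, of which only the interval of SDHAP3 (0.03 to 0.55) lay above 0.

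Complex III, the cytochrome bc1 complex, had 8 of 10 genes with an interval below 0 and 0 with one above 0. The median log2 ratio was -0.22. Among features of like Length, as described below, 55.1% on average had an interval below 0. The sums of complex III were 13352 counts in PAX5 cells and 14051 in control cells, at -0.18 (-0.22 to -0.15). UQCR11, the smallest subunit, was lowest in complex III. It had 749 counts in the PAX5 library versus 974 in the control library, or 47.1 and 66.1 CPM per kilobase, at -0.49 (-0.63 to -0.35). UQCRQ and UQCR10, small subunits also, were at -0.33 each. The core proteins UQCRC1 and UQCRC2 form the matrix domain. UQCRC1 had 1577 counts in the PAX5 library, against 1698 in the control library, at -0.22 (-0.31 to -0.12). UQCRC2 had 3394 counts in PAX5 cells and 3233 in control cells, at -0.04 (-0.11 to 0.03). The quinone-binding subunit UQCRB had 1550 counts in the PAX5 library versus 1500 in the control library, at -0.06 (-0.17 to 0.04). CYC1, cytochrome c1, was at -0.16 (-0.28 to -0.04), and the Rieske iron-sulphur protein UQCRFS1 was at -0.22 (-0.36 to -0.09). UQCRH and its near-copy UQCRHL, at -0.22 and -0.20, may have exchanged reads.

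Complex IV, cytochrome c oxidase, had 12 of its 17 genes with at least 10 counts. Of these 12, 11 had an interval below 0, and the median was -0.31. Among features of like Length, as described below, 78.0% on average had an interval below 0. The sums of complex IV were 18376 counts in the PAX5 library, against 20483 in the control library, at -0.27 (-0.29 to -0.24). COX8A, the ubiquitous isoform of the small membrane subunit 8, had 1724 counts in PAX5 cells and 2187 in control cells, or 286 and 391 CPM per kilobase, at -0.45 (-0.54 to -0.36). COX7B had 810 counts in the PAX5 library versus 991 in the control library, at -0.40 (-0.54 to -0.26). COX5B, a zinc-binding matrix subunit, had 1131 counts in the PAX5 library, against 1336 in the control library, at -0.35 (-0.47 to -0.23). The ratios nearest 0 belonged to the most abundant genes of the complex and to COX7A2L. COX4I1, the regulatory subunit 4, had 3807 counts in PAX5 cells and 3943 in control cells, at -0.16 (-0.22 to -0.10). COX7C had 2660 counts in the PAX5 library versus 2762 in the control library, or 549 and 615 CPM per kilobase, at -0.16 (-0.24 to -0.09). COX7A2L, which links complexes III and IV in supercomplexes, had 1503 counts in the PAX5 library, against 1558 in the control library, at -0.16 (-0.26 to -0.06).

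For the subunits with tissue isoforms, the ubiquitous form was the abundant one in both libraries. COX4I1, COX6A1, COX6B1, COX7A2, COX7B and COX8A had at least 128 CPM per kilobase in each library, with COX6A1 at 128 and 158, COX6B1 at 226 and 280 and COX7A2 at 130 and 165 in the PAX5 and control libraries. Their log2 ratios were -0.30 (COX6A1), -0.31 (COX6B1) and -0.34 (COX7A2). The other isoforms were at or near 0. COX6A2, of heart and skeletal muscle, COX4I2, known from lung, and COX7B2 were without a count in either library; 0 counts leaves room for a level of 0.252 CPM in the PAX5 library and of 0.272 CPM in the control library. COX7A1, the heart and muscle form, had 0 counts in PAX5 cells and 1 in control cells, and COX6B2, the testis form, had 4 and 3. COX8C had 26 counts in the PAX5 library versus 9 in the control library, a log2 ratio of 1.42 (0.28 to 2.70). It overlaps UNC79, which had 504 counts in the PAX5 library, against 329 in the control library, so its few counts may include reads of that gene. Subunit NDUFA4 now carries the symbol COXFA4 and is therefore outside the 86 genes. It had 878 counts in PAX5 cells and 1009 in control cells, at -0.31 (-0.44 to -0.18). Its relatives COXFA4L2 (25 counts in the PAX5 library versus 17 in the control library) and COXFA4L3 (0 in both) were scarce.

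Complex V, ATP synthase, was the complex in which all genes had an interval below 0 (18 of 18), with a median of -0.28. Of the 18, ATP5MGL had only 26 counts over both libraries and an upper bound of -0.0056. Among features of like Length, as described below, 62.8% on average had an interval below 0. The sums of complex V were 45046 counts in the PAX5 library, against 48414 in the control library, at -0.21 (-0.23 to -0.19). The 5 genes of the catalytic F1 head had a median of -0.18. ATP5F1A and ATP5F1B, the alpha and beta subunits, had the most counts of all 86 genes. ATP5F1B had 12672 counts in PAX5 cells and 13288 in control cells, or 578 and 653 CPM per kilobase, at -0.18 (-0.21 to -0.14). ATP5F1A had 9297 counts in the PAX5 library versus 9438 in the control library, at -0.13 (-0.17 to -0.09). ATP5F1C, the rotating gamma subunit, had 2755 counts in the PAX5 library, against 2890 in the control library, at -0.18 (-0.25 to -0.10). ATP5F1B overlaps BAZ2A, which had 3215 counts in PAX5 cells and 2519 in control cells. The 4 genes of the peripheral stalk, which holds the head still, had a median of -0.24.

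The lowest ratios of ATP synthase belonged to small membrane subunits. The summed counts of these 6 genes were 4989 in the PAX5 library versus 5829 in the control library, 0.794-fold. ATP5MK, a small subunit linked to the dimer form of the enzyme, had 376 counts in the PAX5 library, against 540 in the control library, or 57.1 and 88.5 CPM per kilobase, at -0.63 (-0.82 to -0.44). ATP5ME, subunit e of the dimer interface, had 593 counts in PAX5 cells and 792 in control cells, or 136 and 197 CPM per kilobase, at -0.53 (-0.68 to -0.37). ATP5MK overlaps TAF5, which was at -0.03. The ratios of ATP5MK and ATP5ME are the lowest ratios after NDUFS5 among the 79 genes. The next 3 small subunits lay nearer the rest of the complex, with ATP5MG at -0.28, ATP5MF at -0.26 and ATP5MJ at -0.25, while the F1 genes ATP5F1D and ATP5F1E were lower, at -0.35 and -0.33. ATP5MGL, a scarce copy of subunit g, had 8 counts in the PAX5 library versus 18 in the control library, at -1.28 (-2.69 to -0.01), and overlaps CYB5R3. ATP5MC1, ATP5MC2 and ATP5MC3 encode the same mature ring subunit c with different import sequences. ATP5MC1 had 429 counts in the PAX5 library, against 518 in the control library, at -0.38 (-0.57 to -0.19). ATP5MC2 had 3608 counts in PAX5 cells and 3820 in control cells, at -0.19 (-0.26 to -0.13). ATP5MC3 had 2892 counts in the PAX5 library versus 3241 in the control library, at -0.27 (-0.35 to -0.20). All 3 were lower in the PAX5 library, and together they were 0.848-fold the control level.

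**Figure D2:**
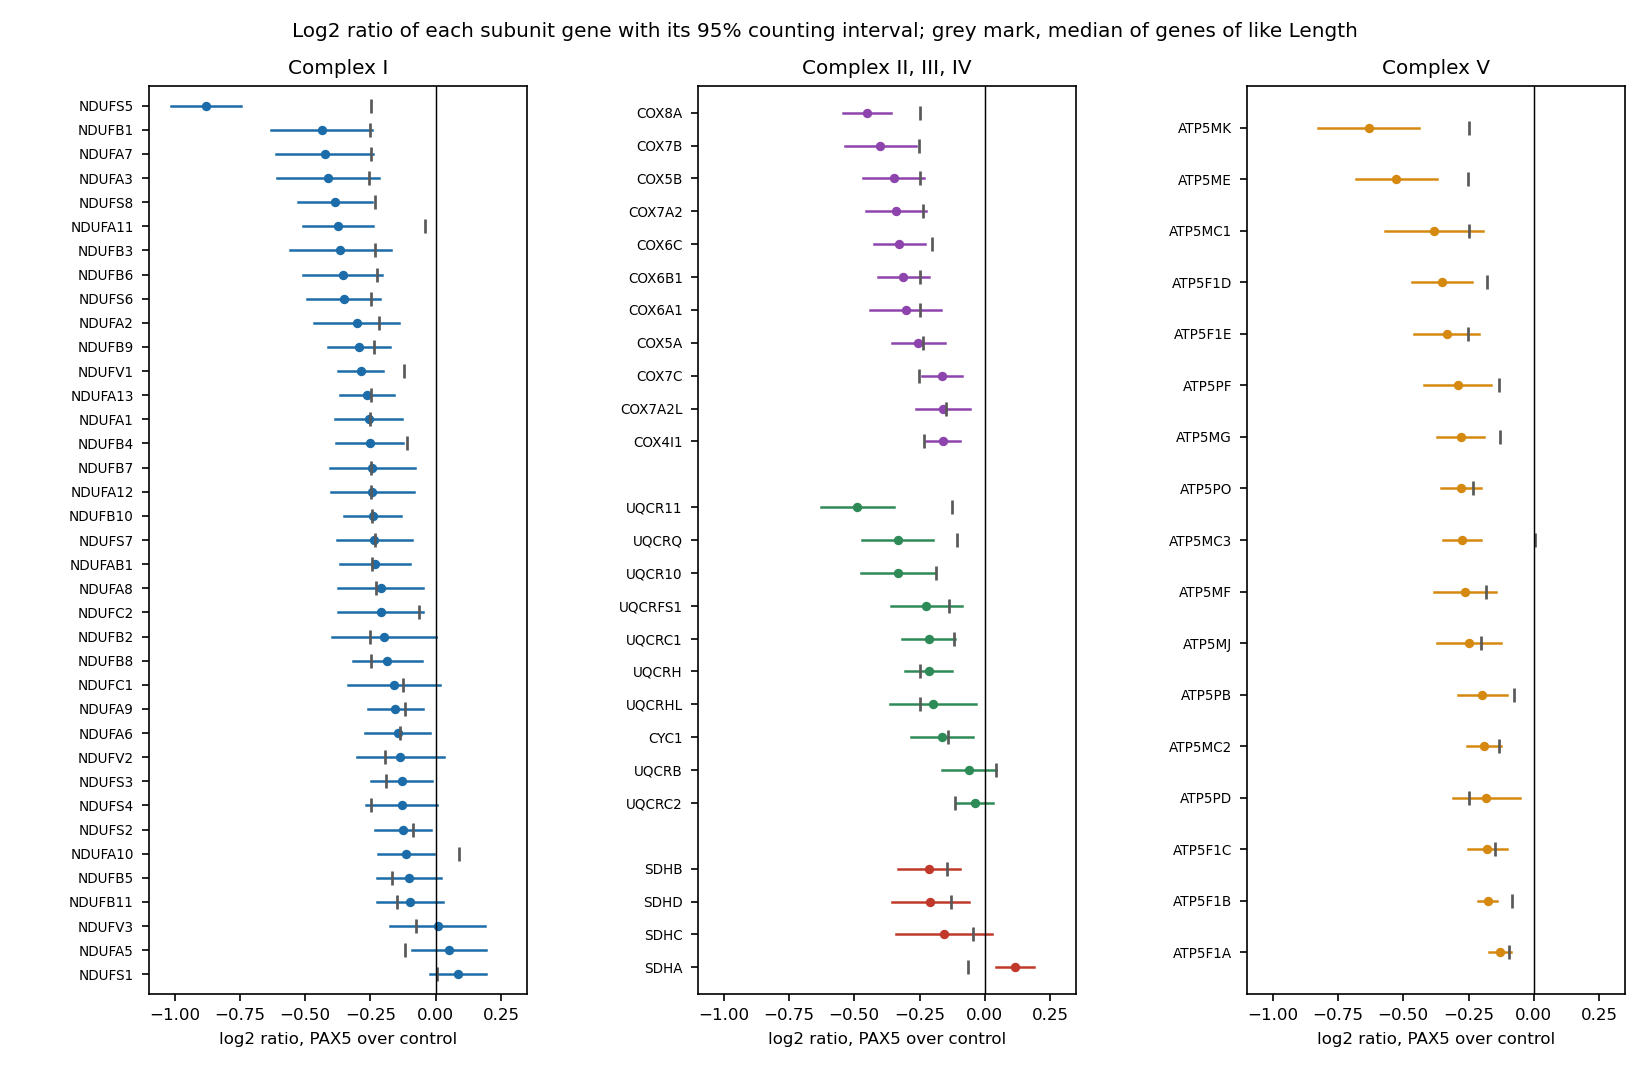
Log2 ratio of each subunit gene with at least 100 counts (point) with its 95% counting interval (line), PAX5 over control, by complex; the grey mark is the median ratio of the other features nearest in Length and the vertical line is a ratio of 1. Nearly all points lie left of 0, NDUFS5 lies farthest left at -0.88, and SDHA lies right of 0 at 0.12.

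Length moved with the ratios in these libraries, for subunit genes and for other genes alike. Across the 79 genes the log2 ratio and Length had a Spearman rho of 0.527, against 0.559 across 5269 other features with at least 1000 counts. These are correlations across genes, which share the same pair of libraries. The 21 subunit genes of up to 600 bases had a median of -0.33, beside -0.30 for 52 other abundant features of that Length, of which 88.5% had an interval below 0. Between 600 and 800 bases the medians were -0.24 for 11 subunit genes and -0.26 for the others, and between 800 and 1000 bases they were -0.28 for 13 subunit genes and -0.23 for the others. From 1000 to 1500 bases they were -0.18 (14 genes) and -0.14, and from 1500 to 2500 bases -0.17 (14 genes) and -0.09. The 6 subunit genes longer than 2500 bases had a median of -0.13, beside 0.06 for the others. In these libraries the lower counts of the shorter subunit genes and the lower counts of short genes in general cannot be told apart.

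**Figure D3:**
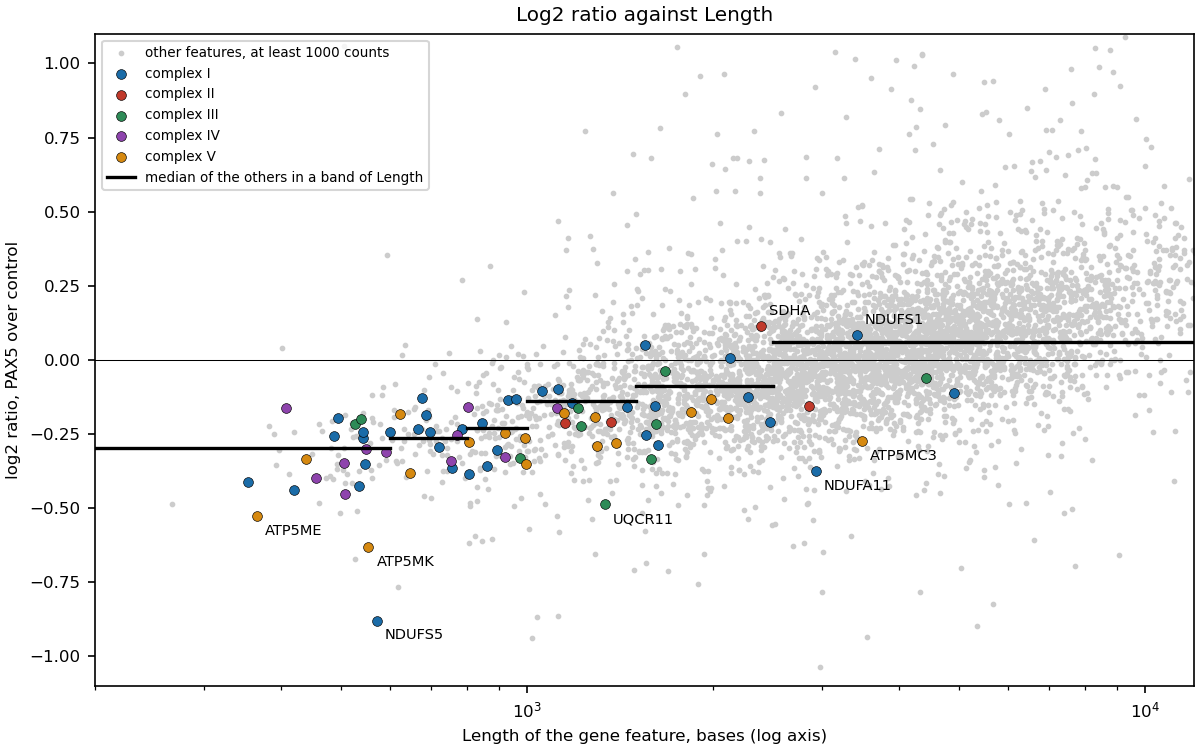
Log2 ratio, PAX5 over control, against Length in bases (log axis) for the subunit genes with at least 100 counts (coloured by complex) and for other features with at least 1000 counts (grey; those outside the axes are not drawn); black bars are medians of the others in 6 bands of Length. The short subunit genes lie around the low medians of short genes, near -0.30 up to 600 bases, with NDUFS5, ATP5MK and ATP5ME under them. The longer UQCR11 (1335 bases) lies under the median of its own band, and SDHA lies above that of its band.

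Each gene was then set against the 3.81% of those 5269 other features that are nearest to it in Length. A length-centred difference is the gene's log2 ratio minus the median ratio of these like-sized features. Its median over the 81 genes was -0.06, with 58 negative and 23 positive values. The interval lay below the median of the like-sized features for 21 genes, above it for 6, and held it for 54. These counts depend on how length is matched: they were 34 below and 3 above with a window of 7.61% of the features, and 33 below and 3 above with the length of the main GENCODE 29 transcript. Over the 2612 features that were like-sized to any subunit gene, 38.1% had an interval below 0 and 14.1% one above 0. Averaged over the subunit genes, 64.1% of a gene's like-sized features had an interval below 0 and 5.83% one above 0, so the count of 67 of 81 (82.7%) is read beside 64.1%. By complex, the median centred difference was -0.01 in complex I (6 of 37 below), -0.08 in complex II (0 of 4 below), -0.09 in complex III (4 of 10 below), -0.06 in complex IV (3 of 12 below) and -0.11 in complex V (8 of 18 below). Above the like-sized median lay 1 gene of complex I (NDUFA5), 1 of complex II (SDHA), 1 of complex III (UQCRC2), 3 of complex IV (COX4I1, COX7C and COX8C) and 0 of complex V. With main transcript lengths UQCRC2, COX4I1 and COX7C held the like-sized median. For the shortest genes the like-sized features are mostly longer than the gene, since few abundant features are so short, and for NDUFS5 they ran from 382 to 958 bases.

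NDUFS5 was lower than every one of its like-sized features, with a centred difference of -0.63 (-0.76 to -0.50). ATP5MK followed at -0.38 (-0.57 to -0.19) and UQCR11 at -0.36 (-0.50 to -0.22), with 0.995% of the like-sized features lower in each case. ATP5ME was at -0.27 (-0.43 to -0.12). ATP5MC3, a long feature of 3482 bases, was at -0.28 (-0.35 to -0.20), beside a median of 0.003 over its like-sized features. SDHA was at 0.18 (0.11 to 0.25), higher than 83.6% of its like-sized features. NDUFA11, an accessory subunit of the membrane arm, depended on which length is used. It had 822 counts in the PAX5 library, against 988 in the control library, and its centred difference was -0.33 with its Length of 2933 bases but -0.13 with the 539 bases of its main transcript in GENCODE 29.

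**Figure D4:**
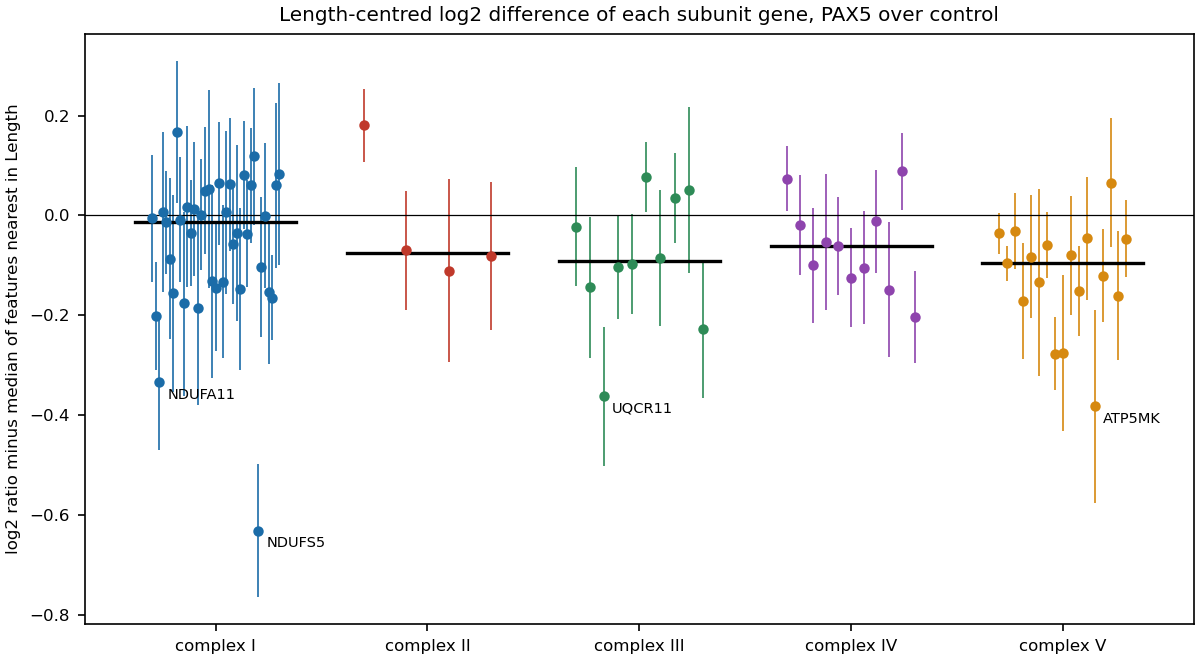
Length-centred difference of each subunit gene with at least 100 counts (log2 ratio, PAX5 over control, minus the median of the features nearest in Length), by complex, with 95% counting intervals; black bars are medians and genes run in alphabetical order within a complex. The intervals of most genes hold 0, but more points lie under 0 than above it. NDUFS5 stands lowest at -0.63, and SDHA in complex II stands at 0.18.

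Other families of abundant genes for large complexes were set beside the subunit genes. Of 84 cytosolic ribosomal protein genes with at least 10 counts, 74 had an interval below 0 and 1 above 0, with a median log2 ratio of -0.26 and a median centred difference of -0.07. Mitochondrial ribosomal protein genes had 37 of 77 below 0 and a median of -0.18, with a median centred difference of -0.02. Proteasome subunit genes had 17 of 37 below 0 and a median of -0.11, with a median centred difference of 0.0027. Of these families' like-sized features, the average share with an interval below 0 was 69.53% (cytosolic ribosomal), 56.99% (mitochondrial ribosomal) and 52.82% (proteasome). The families' own shares were 88.1%, 48.1% and 45.9% in that order. Only the cytosolic ribosomal genes thus had a higher share than their like-sized features.

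The factors that assemble the complexes were less abundant, so their intervals were wider. For complex I 3 of 16 had an interval below 0 and 0 above, with a median of -0.13, and TMEM126A had 198 counts in PAX5 cells and 264 in control cells, at -0.52 (-0.80 to -0.25). NDUFAF6 was at -0.41, and NDUFAF2 and NDUFAF5 were nearest 0 at -0.03 and -0.02. For complex II 2 of 4 were below 0, SDHAF3 (-0.27) and SDHAF2 (-0.23), with a median of -0.20, beside -0.18 for SDHAF1 and 0.12 for SDHAF4. For complex III 0 of 6 were below or above 0, with a median of -0.15, and values of -0.36 for UQCC3, -0.17 for UQCC1, -0.10 for TTC19 and -0.05 for LYRM7. For complex IV 7 of 21 were below 0 and 1 above, with a median of -0.13. PET100, a complex IV chaperone, had 94 counts in the PAX5 library versus 139 in the control library, at -0.67 (-1.07 to -0.29), and COA4 was at -0.38 (-0.59 to -0.18). COX19, which takes part in copper delivery, had 796 counts in the PAX5 library, against 549 in the control library, at 0.43 (0.27 to 0.59), and COX14 was at 0.28 (-0.02 to 0.58). For complex V 1 of 3, TMEM70, was below 0 at -0.21 (-0.40 to -0.02), and ATPAF1 and ATPAF2 were at -0.11 and -0.01. The median centred differences of these assembly factors were -0.0165 for complex I, -0.0567 for complex II, -0.0754 for complex III, -0.0726 for complex IV and -0.13 for complex V. Of their like-sized features, the average share with an interval below 0 was 48.7% for complex I, 59.8% for complex II and 46.0% for complex III. It was 48.3% for complex IV and 32.3% for complex V.

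The metabolic neighbours of the complexes are longer genes, with a median Length of 2663 bases for the tricarboxylic acid cycle and 1823.5 for the carriers, against 921 for the subunit genes. Of 13 tricarboxylic acid cycle genes, 1 had an interval below 0 and 0 above, with a median of -0.01 and a median centred difference of 0.036. Of these genes' like-sized features, 33.2% on average had an interval below 0 and 13.7% one above 0. MDH2, malate dehydrogenase, had 2801 counts in PAX5 cells and 3159 in control cells, at -0.28 (-0.36 to -0.21), and FH was next at -0.07. At the other end SUCLG2 was at 0.10 (-0.02 to 0.22) and OGDH at 0.06 (-0.04 to 0.16). Of 22 genes for electron carriers and for ATP and phosphate carriers, 10 were below 0 and 2 above, and the other 10 held 0. Their ratios ran both ways, from -0.60 to 0.36, with a median of -0.04 and a median centred difference of 0.037. Of the carriers' like-sized features, 38.8% on average had an interval below 0 and 13.6% one above 0. PDSS1, which makes the tail of coenzyme Q, had 12.0 CPM in the PAX5 library versus 18.2 in the control library, at -0.60 (-0.92 to -0.28). ETFB, of the electron transfer flavoprotein, was at -0.33 (-0.47 to -0.18). SLC25A4, an ADP/ATP carrier, had 358 counts in the PAX5 library, against 258 in the control library, at 0.36 (0.13 to 0.60), and PDSS2, the partner of PDSS1, was at 0.22 (-0.01 to 0.45).

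Of 13 tested regulators of respiratory genes, 4 had an interval below 0 and 1 above, with a median of -0.05. Of their like-sized features 28.2% on average had an interval below 0. The regulators' median centred difference was -0.12, with 4 genes below and 2 above the like-sized median. ESRRA, the nuclear receptor ERR alpha, had 141 counts in PAX5 cells and 249 in control cells, a log2 ratio of -0.93 (-1.24 to -0.63). MYC had 2503 counts in the PAX5 library versus 3019 in the control library, at -0.38 (-0.46 to -0.30). GABPB1, a subunit of the ETS factor GABP, had 1028 counts in the PAX5 library, against 864 in the control library, at 0.14 (0.01 to 0.27). TFB2M, a mitochondrial transcription factor, was at 0.20 (-0.05 to 0.45). NRF1 was at 0.05, YY1 at 0.01 and TFAM at 0.01, each with an interval that held 0.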

How the data were processed

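Total RNA of GFP-sorted cells was sequenced as 1 library per group. The deposited tables hold raw counts of reads per gene, beside an Entrez number and the gene's Length (bases). Per the submitters' processing notes, the authors used featureCounts and the build GRCh37 (hg19). Not given in the sources used here are the aligner, the strand setting, versions and the handling of reads that match several genes. All 51404 values were the same in the series table and the files of single libraries.

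Symbols were matched by Entrez number to a RefSeq table of GRCh38.p14 (23696 of 25702 features). TMM scaling over all features was done with edgeR 4.0.16 under R 4.3.3, with factors of 0.996 (PAX5) and 1.004 (control). With 1 library per group neither edgeR nor DESeq2 can estimate the spread between cultures from these data, so no gene was tested. The 95% intervals of ratios are exact Clopper-Pearson intervals given the summed count (scipy 1.17.1, Python 3.11.15). These intervals and the floor of 3 counts cover counting error only, and they treat each read as an independent molecule. PCR copies are not independent, so the counting error may be larger than they show. Features under 10 summed counts were not given a ratio. A gene counted as past 2-fold when the bound nearest 0 lay beyond it. Like-sized features were the 3.81% of abundant non-members nearest in log Length. Transcript lengths and GC content came from GENCODE 29.

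Genes named are the 3 lowest and 3 highest ratios of each complex among those with at least 100 counts, tissue isoforms, scarce members, and the 2 lowest and 2 highest of other lists. Further genes (overlapping or near-identical genes, abundant genes, core subunits, NRF1, YY1 and TFAM) were chosen after their values were seen. The members and lists were chosen with earlier results of these data known. The calculation was checked on simulated data. Alternatives tried were other scalings, count minimums, bounds, assumed variation, means, and other ways of matching length.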

Additional observations from a re-analysis of the deposited data

How the results depend on the processing

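Of 218 alternative values under 21 settings, 203 moved by less than the limit set for them and 15 by more. Part of the 203 could not move, so this tally is not a measure of stability. A library scaling shifts a gene and its like-sized features alike and leaves centred differences unchanged. The files of single libraries hold the same values as the series table. Leaving out NDUFS5 can change only medians that include it. The median centred difference changed sign under 1 setting in complex I. In complex IV the median stayed negative, and only the mean was positive. The count of 67 genes below 0 ranged from 63 to 69 under other scalings of the libraries. With an assumed biological coefficient of variation of 0.1 it was 5 below and 1 above, and with 0.2 it was 1 below and 0 above. With a minimum of 50 counts, 1 gene was above 0. A bound at 1.5-fold called 1 gene and a point ratio at 2-fold called 2, against 0. By DESeq2 size factors the log2 ratio of all summed counts was -0.20, against -0.21. The mean over complex IV was -0.15, and its mean centred difference 0.084, against medians of -0.31 and -0.06, since COX8C enters a mean with its full ratio. Genes below the like-sized median numbered 34 with a window of 7.61% of the abundant features, 33 with main transcript lengths and 31 with bins of GC content and Length, against 21. Genes above it numbered 3 with the wider window, 3 with main transcript lengths and 3 with bins of GC content and Length, against 6. The cause of these shifts was not tested. The median centred difference of complex I was 0.0011 with like-sized features of at least 100 counts, and negative under the other settings, while that of complex V stayed between -0.15 and -0.10. Main transcript lengths, fixed bands, leaving out NDUFS5 and TMM over features with at least 10 counts were added after the data were seen. Keeping read-through loci gave no value, because the table had 0 of them. No paired analysis was possible because each group has 1 library. Variation between cultures was not measured, and depth limits the scarce isoforms most.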
